A study of Mus musculus with 7 samples.

Results

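Ribosomal protein genes were followed across 7 microarrays of mouse whole neocortex, 4 of CKO and 3 of WT samples, 1 sample to an array. Members were taken by symbol: names of the form Rps or Rpl (Rplp for the stalk proteins) with a number and at most 1 ending letter of a, x, y or l, and Rpsa; symbols of pseudogenes marked -ps and of the Rps6k kinases were left out. This gave 59 genes on 215 probe sets, of 21786 probe sets that carry a single gene symbol. There were 22 genes of the small subunit and 37 of the large subunit. The brightest probe set stood for each gene, and 57 members were among the 16144 genes above a filter on dim probe sets; Rpl3l and Rpl39l were below it. A further 233 probe sets list a ribosomal protein gene together with other symbols, 16 of these genes on no other probe set, and none is named from them.

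CKO samples carry a genotype that joins COUP-TFI with Nex-Cre, and WT samples are wild type; all are C57BL/6, and every sample had RNA of integrity number 10, of which 0.2 µg was used. COUP-TFI is the nuclear receptor made from Nr2f1 and takes part in laying out neocortical areas. Nex-Cre, driven from the Neurod6 locus, acts mainly in glutamatergic neurons after their last division. Most progenitors, and the interneurons, glia and vessels of the tissue, are therefore not its main targets. The labels do not state the age, the alleles of COUP-TFI, whether WT animals carried Cre or whether samples came from separate animals, so p-values speak only for the spread among these samples, some of which may be technical. Each array is called by its group and the number in its label (CKO 1, CKO 4, CKO 34, CKO 43, WT 6, WT 27, WT 38). The comparison asks whether ribosomal protein transcripts differ between the genotypes. The unit throughout is the log2 signal after RMA, a summary of an array's probes, and a difference is CKO minus WT.

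A ribosome joins a small subunit, which reads the mRNA, to a large subunit, which forms the peptide bond. Each is built from ribosomal RNA and many small basic proteins that are made in nearly equal amounts. The mRNAs of these proteins begin with a run of pyrimidines, the 5′ terminal oligopyrimidine tract, through which mTOR signalling and the RNA-binding protein LARP1 set their translation. Growing and dividing cells, neural progenitors among them, keep up a high output of new ribosomes.

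The pyrimidine run can be seen in the sequence around the annotated starts of some members. The windows shown here belong to 6 genes at the ends of the ranking by limma t (the 4 lowest and 4 highest per subunit) that have a run of at least 10 C or T; the first 3 had negative differences and the last 3 positive ones. Each window spans 15 bases on either side of a RefSeq start on GRCm38.p6, read on the gene's strand, and capitals mark its longest unbroken run of C or T.
Rpl19, chr11:98026909-98026938 (+): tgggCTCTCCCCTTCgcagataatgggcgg
Rpl27a, chr7:109519180-109519209 (+): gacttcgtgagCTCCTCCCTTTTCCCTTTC
Rps10, chr17:27635230-27635259 (-): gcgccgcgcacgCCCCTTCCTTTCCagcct
Rpl28, chr7:4792950-4792979 (+): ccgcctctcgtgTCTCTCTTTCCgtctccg
Rps15a, chr7:118116133-118116162 (-): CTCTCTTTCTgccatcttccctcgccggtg
Rpl34, chr3:130730323-130730352 (-): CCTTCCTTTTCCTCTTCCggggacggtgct
The runs of Rpl27a, Rps10, Rpl28 and Rpl34 cross the middle of the window, while those of Rpl19 and Rps15a lie before it. Of 56 starts listed for 47 members, 14 had such a run, against 5.34% of all 32851 starts in the table. The 6 genes were picked for their run, so they do not show how common it is at either end of the ranking. Rps14, Rpl7 and Rplp1, also at these ends, were among the 12 members with no listed start. The other genes at these ends had shorter runs at their listed starts. The longest was 3 for Rps15 and Rpl10, 6 for Rps2, 7 for Rps25, Rpl12 and Rps19, and 9 for Rps27l. A second start had a longest run of 5 for Rpl19 and 8 for Rpl34.

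Promoter windows, from 250 bases before to 50 after each start, were searched for short motifs on both strands. CCGGAAG, the core bound by ETS factors, was in 19 of the 56 member windows, or 33.9%, against 8.86% of all windows. AGGTCA, the hexamer that nuclear receptors such as COUP-TFs bind as repeats, was in 7 member windows, or 12.5%, against 16.3% of all. These windows belong to Rpl10l, Rpl22, Rpl24, Rpl3l, Rps3 and Rps4x. A direct repeat of that hexamer spaced by 1 base was in 0 member windows and in 0.0396% of all. A match to these letters is a description of the sequence and not a binding site.

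No ribosomal protein gene passed the test between the genotypes. With limma over all 16144 genes, 0 of the 57 tested members had an adjusted p of at most 0.05, where 0.0248% of all genes did (4 genes). At an unadjusted p of at most 0.05 there were 0 members, where 6.79% of all genes did (4.17% higher and 2.61% lower in CKO). The smallest adjusted p of a member was 0.727. Of the 57 members 52 had a difference within 0.1 of 0 on the log2 scale. The groups did not overlap for 5 members, 2 lower and 3 higher in CKO, against 8.38% of all genes (2.99% lower and 5.39% higher).

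The intervals show the precision of each gene's signal difference in this fit, which has no term for the array lot inferred below. They are not a bound on what the arrays could have missed. For 40 of the 57 members the 95% interval of the difference lay within 0.2 of 0, as it did for 59.8% of all genes. The widest intervals belonged to Rpl34, up to 0.75, and Rplp2, down to -0.38. The median standard error was 0.050 for members and 0.055 for all genes. Members gave bright probe sets, with a median signal of 12.49 and a median percentile of 97.9 among the genes tested.

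**Figure D1:**
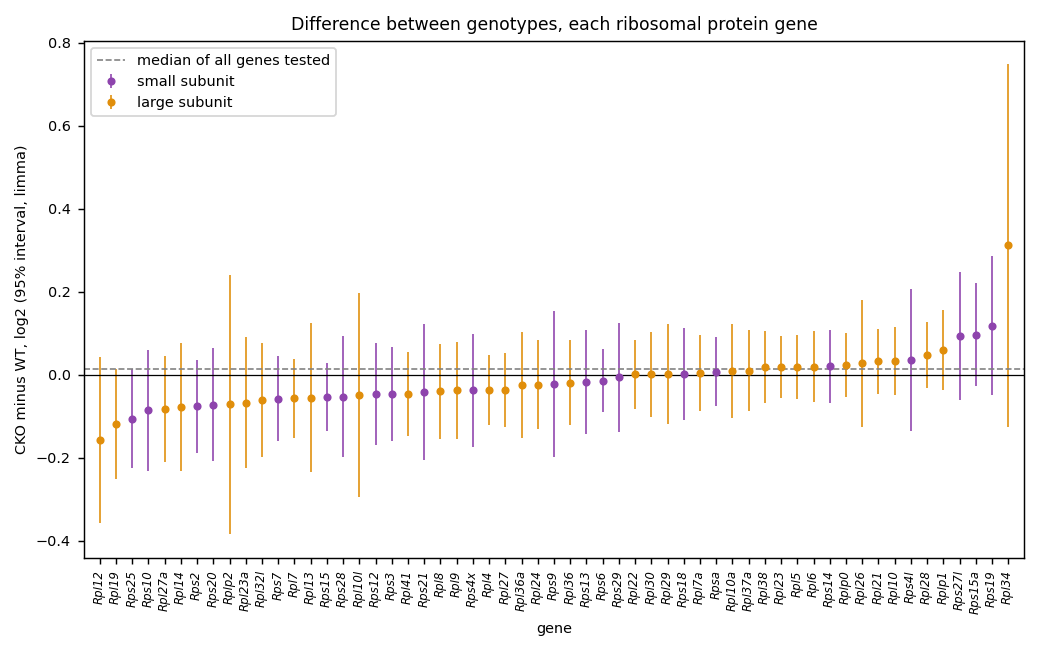
The CKO minus WT difference in log2 signal (vertical axis) of each of the 57 tested genes, ordered along the horizontal axis, with limma's 95% interval as a bar and colour for the subunit. The interval of every gene includes 0, and Rpl34 stands at the right with a difference of 0.31 and the widest interval.

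Small subunit genes had a median difference of -0.030, with 15 of 22 negative and quartiles of -0.054 and 0.0061. Large subunit genes had a median of -0.019, with 18 of 35 negative and quartiles of -0.052 and 0.019. Over all genes the median was 0.014, and 41.1% were negative and 58.9% positive. The mean signal of the small subunit was 12.06 on CKO 1, 12.08 on CKO 4, 12.05 on CKO 34 and 12.08 on CKO 43, against 12.16 on WT 6, 12.08 on WT 27 and 12.01 on WT 38. All 4 CKO arrays lay between WT 38 and WT 6. Over the 4 CKO arrays the mean was 12.07 ± 0.016 (SD, n = 4), and over the 3 WT arrays it was 12.08 ± 0.074 (SD, n = 3); they differed by -0.017. The mean of the large subunit was 11.91 on CKO 1, 11.94 on CKO 4, 11.91 on CKO 34 and 11.94 on CKO 43, against 11.99 on WT 6, 11.91 on WT 27 and 11.91 on WT 38. WT 6 lay above all the other arrays. The CKO mean was 11.92 ± 0.015 (SD, n = 4), the WT mean was 11.93 ± 0.048 (SD, n = 3), and they differed by -0.012. For both subunits the difference was smaller than the spread of the WT arrays.

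Both medians turned positive without WT 6, to about the median of all genes. It was the highest of the 7 arrays for 30 of 57 members (52.6%), 14 of the small and 16 of the large subunit, against 18.3% of all genes. Without this array the median difference was 0.012 for the small and 0.011 for the large subunit, beside 0.013 over all genes. Of the members 10 of 22 and 15 of 35 were then negative. The share of all genes that were negative is not given for this and the next refits. WT 38 was the lowest array for 23 members (40.4%), against 30.8% of all genes. Without WT 38 the medians were -0.064 and -0.025, beside 0.0057 over all genes. In that limma fit 6 members, or 10.5%, had an unadjusted p of at most 0.05, where 10.9% of all genes did. Of these members 5 were lower and 1 higher in CKO, and the smallest adjusted p of a member was 0.342 (limma). The labels name no lot. Array lots were inferred here from digits within the array identifiers, and what these digits reflect is not stated. Lot 1 in this sense holds CKO 1 and CKO 4, lot 3 holds WT 6 alone, so that array and lot cannot be told apart there, and only lot 2 holds both genotypes. In lot 2 (CKO 34, CKO 43, WT 27 and WT 38) the medians were 0.017 and 0.0085, beside -0.0056 over all genes. There 7 of 22 and 14 of 35 members were negative.

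**Figure D2:**
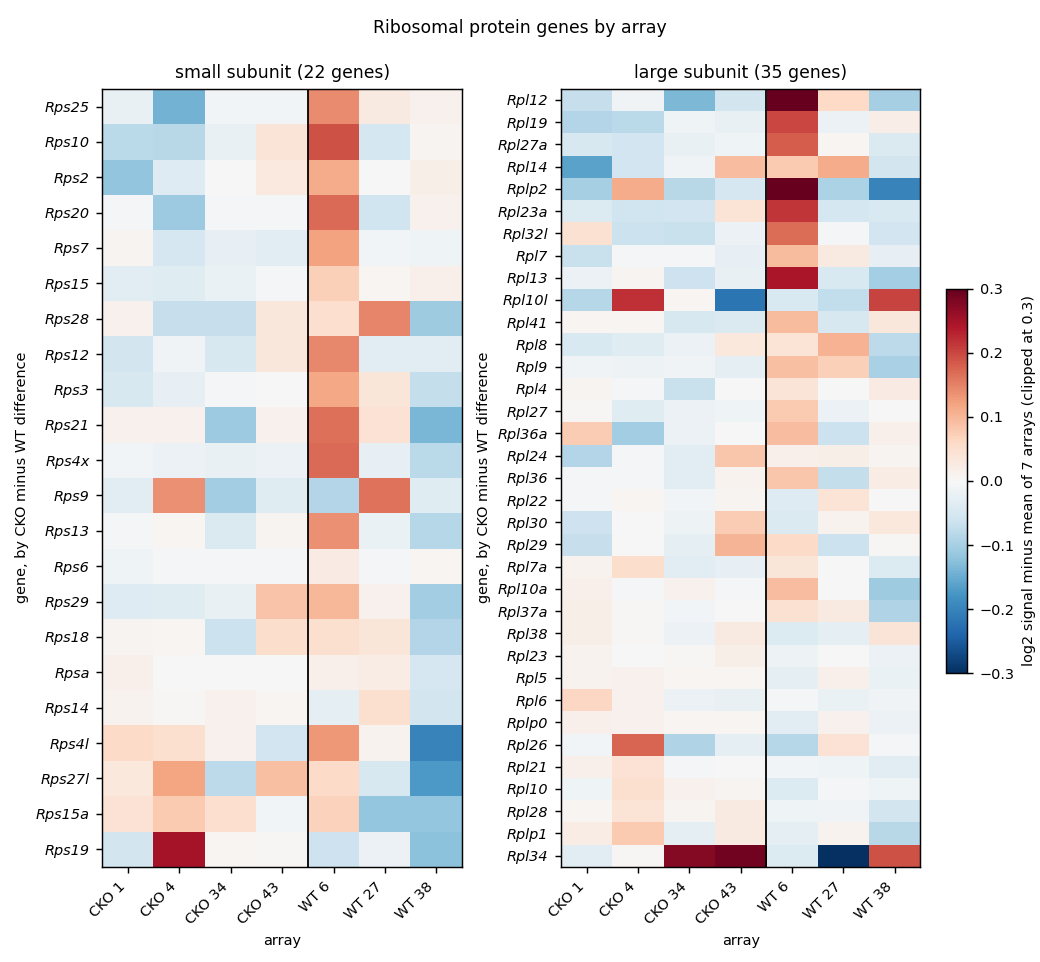
Log2 signal of each tested gene (rows, by subunit and ordered by the CKO minus WT difference) on each array (columns), as the deviation from the gene's mean over the 7 arrays; red is higher and blue is lower, clipped at 0.3. The WT 6 column is red for most genes of the upper rows in both panels, and single cells stand out for Rpl34 on WT 27 and Rps19 on CKO 4. The upper rows have the lowest differences, so higher WT values there follow from the order.

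Among small subunit genes the lowest t-values belonged to Rps25, Rps2, Rps15 and Rps10. Rps25, a protein of the subunit's head used in some forms of internal initiation, was at 11.99, 11.88, 12.01 and 12.01 on CKO 1, CKO 4, CKO 34 and CKO 43, and at 12.16, 12.05 and 12.03 on WT 6, WT 27 and WT 38. The groups did not overlap, but CKO 34 and CKO 43 lay close to WT 38. The difference was -0.11 (SE 0.052, limma adjusted p 0.727). Rps15, which lies near the decoding site, was between 13.61 and 13.64 in CKO and at 13.72, 13.65 and 13.66 in WT, again without overlap, with a difference of -0.054 (SE 0.036, adjusted p 0.752). Rps2, at the mRNA entry, differed by -0.076 (SE 0.049) and Rps10 by -0.085 (SE 0.064). For Rps2, Rps10, Rps15 and Rps25 the highest array was WT 6, and within lot 2 their differences were 0.0039, 0.031, -0.023 and -0.027. Picking the lowest t favours genes with a high WT array, so this adds nothing to the count over all members.

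The highest t-values of the small subunit belonged to Rps15a, Rps19, Rps27l and Rps14. Rps15a, a core protein of the subunit body, was at 10.50, 10.54, 10.51 and 10.45 in CKO (same order of arrays) and at 10.53, 10.34 and 10.34 in WT. WT 6 lay among the CKO arrays and the other WT arrays lay below them all. The difference was 0.096 (SE 0.054, limma adjusted p 0.740) and within lot 2 it was 0.14, without a call (unadjusted p 0.0403, adjusted p 0.999). With probe sets of several symbols added, the direction turned and the difference was -0.067. Rps19, needed to process the RNA of the small subunit and mutated in Diamond-Blackfan anaemia, was at 11.23, 11.54, 11.29 and 11.29 in CKO and at 11.23, 11.27 and 11.17 in WT. CKO 4 stood above the other 6 arrays, and without it the difference went from 0.12 (SE 0.073) to 0.051. Rps14 differed by 0.020 (SE 0.038), with CKO arrays at 12.07 to 12.08 inside the WT range of 12.01 to 12.11. Rps6, the protein that mTOR's S6 kinases phosphorylate, was nearly level, at 13.79 to 13.80 in CKO and 13.80 to 13.83 in WT (difference -0.015, SE 0.033). Rpsa, also known as the laminin receptor, was at 12.67 to 12.69 in CKO and 12.63 to 12.70 in WT (difference 0.0075, SE 0.036).

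Among large subunit genes the lowest t-values belonged to Rpl19, Rpl12, Rpl27a and Rpl7. Rpl19, which bridges to the small subunit, was at 13.34, 13.34, 13.41 and 13.40 in CKO and at 13.63, 13.41 and 13.44 in WT. WT 6 lay well above all others, and WT 27 lay between CKO 43 and CKO 34. The difference was -0.12 (SE 0.058, limma adjusted p 0.727); without WT 6 it was -0.052. Rpl12, which binds at the base of the stalk, was at 9.28, 9.34, 9.22 and 9.30 in CKO and at 9.66, 9.41 and 9.25 in WT, a difference of -0.16 (SE 0.087, adjusted p 0.739) that went to -0.047 without WT 6 and turned to 0.036 with probe sets of several symbols added. Rpl27a differed by -0.083 (SE 0.056) and Rpl7 by -0.057 (SE 0.042); without WT 6 they differed by -0.016 and -0.026. For these 4 genes, too, WT 6 was the highest array. Picking the lowest t again favours genes with a high WT array.

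The highest t-values of the large subunit belonged to Rpl34, Rplp1, Rpl28 and Rpl10. Rpl34 had the largest difference of any member, 0.31 (SE 0.190, limma adjusted p 0.749), or 1.24-fold. Its signals were 11.02, 11.06, 11.33 and 11.34 in CKO and 11.01, 10.37 and 11.24 in WT. WT 27 lay far below the next array, WT 6, and without WT 27 the difference was 0.059. Rpl28 was between 13.44 and 13.47 in CKO and at 13.42, 13.42 and 13.38 in WT, without overlap, with a difference of 0.047 (SE 0.035). Rpl21 (0.032, SE 0.034) and Rpl23 (0.019, SE 0.033), of which the latter can bind and restrain MDM2, did not overlap either. Rpl10, whose protein is among the last to join the large subunit, differed by 0.033 (SE 0.035), with overlap.

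The stalk proteins recruit the GTPases of translation. Differences were positive for Rplp0 and Rplp1 and negative for Rplp2 alone. Rplp0, the anchor of the stalk, was at 13.59 to 13.60 in CKO and 13.55 to 13.60 in WT (difference 0.023, SE 0.034). Rplp1 was at 13.26, 13.32, 13.21 and 13.27 in CKO and at 13.21, 13.25 and 13.15 in WT (difference 0.060, SE 0.042). Rplp2 was at 8.07, 8.28, 8.09 and 8.12 in CKO and at 8.59, 8.08 and 7.97 in WT. The WT arrays held both the highest and the lowest value (difference -0.072, SE 0.136). Its difference turned to 0.12 without WT 6 and to 0.081 within lot 2. Rplp2 and Rpl12 were the 2 tested members whose brightest probe set lists no RefSeq mRNA of the gene.

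Paralogs and copies named with an ending l were described, with values of the parent gene where it was a member. Rpl3l, Rpl39l, Rps27l and Rpl32l had no parent gene among the members. Rpl3l, the muscle paralog of Rpl3, was at 6.47 to 6.61 in CKO and 6.44 to 6.52 in WT, below the filter at 6.84. Rpl39l, a paralog used in male germ cells, was at 5.12 to 5.42 in CKO and 5.20 to 5.27 in WT. Rpl10l, the germ cell paralog of Rpl10, was tested at 7.42 to 7.86 in CKO and 7.57 to 7.85 in WT and differed by -0.049 (SE 0.107). Rps27l, a p53 target and paralog of Rps27, was at 11.20, 11.28, 11.09 and 11.26 in CKO and 11.23, 11.12 and 10.995 in WT, a difference of 0.094 (SE 0.067, limma adjusted p 0.768). Rps4l, which RefSeq lists as a transcribed pseudogene, differed by 0.036 (SE 0.075) beside -0.038 (SE 0.059) for Rps4x, the X-linked gene. Rpl32l differed by -0.060 (SE 0.060).

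Mouse ribosomal protein genes have many processed copies, and 39 members had several probe sets, up to 14 for Rps12. Of the 215 probe sets, 212 list a RefSeq mRNA of their gene, and for 18 of the 39 genes all probe sets list the same records, so they are not independent measurements. Within a gene the differences spread over a median of 0.045 and at most 0.15, in Rps4l. All probe sets were negative for 17 genes and positive for 8, and 14 genes had both signs. Over all 215 the median difference was -0.033. The groups did not overlap for 16 probe sets, or 7.44%, beside 8.38% of all genes. The first share counts every probe set of a gene and the second only the brightest above the filter, so they are not counted alike. Of the 16 probe sets, 5 of the 6 of Rps25 were lower in CKO, by -0.11 to -0.16, and 4 of the 5 of Rpl28 were higher, by 0.042 to 0.051. For Rpl23 and Rpl21 other probe sets turned the sign, to -0.095 in the second probe set of Rpl23 and to as low as -0.058 among the 9 of Rpl21.

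**Figure D3:**
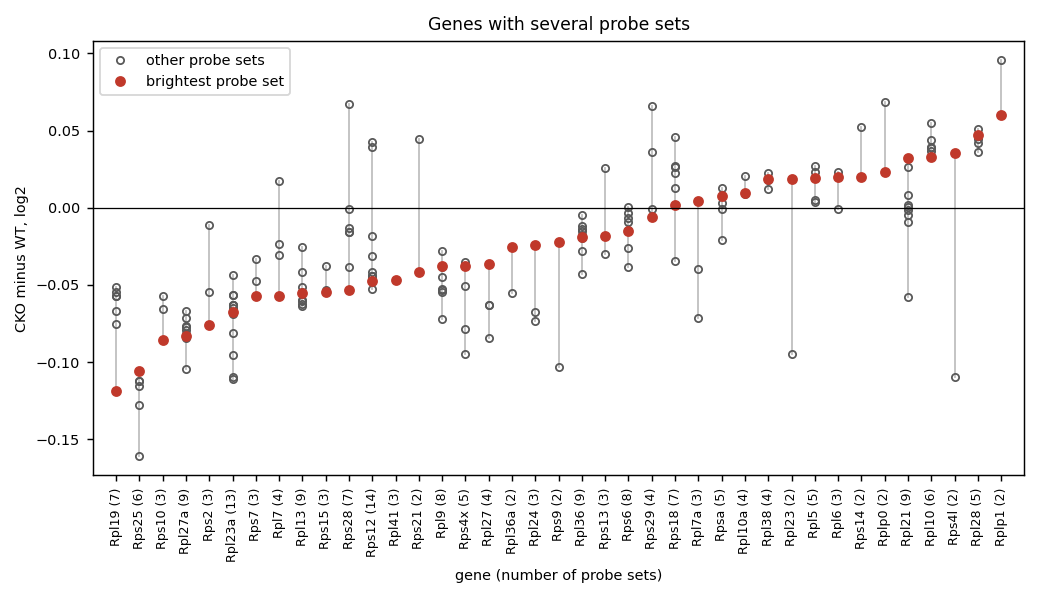
CKO minus WT difference in log2 signal of every probe set of the 39 genes with several; the filled point is the brightest probe set, open points are the others, and the number of probe sets follows each name. Rps25 lies below 0 with all 6 probe sets, Rpl28 lies above 0 with all 5, and 14 genes have points on both sides.

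Genes of the same pathway outside the family gave 0 calls as well, with limma over all genes. Their counts are read beside the shares over all genes, 41.1% negative and 6.79% at an unadjusted p of at most 0.05. Of 74 mitochondrial ribosomal protein genes, 39 were negative, with a median of -0.0056 and 0 at an unadjusted p of at most 0.05; Mrpl16 differed by -0.13 (SE 0.064) and Mrpl52 by 0.090 (SE 0.048). Of 35 translation factor genes, 22 were negative, with a median of -0.0097 and 0 at that p; the initiation factor genes Eif1ax and Eif4a2 differed by -0.082 (SE 0.044) and -0.12 (SE 0.063). Of 55 genes for ribosome assembly factors and RNA polymerase I, 32 were negative, with a median of -0.0085 and 2 at that p. These were Taf1d, a subunit of the RNA polymerase I selectivity factor, at 0.25 (SE 0.072, adjusted p 0.711), and the helicase gene Ddx10 at -0.12 (SE 0.048, adjusted p 0.726). Taf1d lay between 11.93 and 12.22 in CKO and between 11.73 and 11.88 in WT, without overlap. Of 17 genes outside the family with oligopyrimidine mRNAs, 12 were negative and 0 had that p, with a median of -0.0081. Npm1, a nucleolar chaperone, differed by -0.13 (SE 0.066) and Nap1l1 by 0.099 (SE 0.048). Many of the 17, such as Eef1a1, Eef2 and Eif4a2, are also among the translation factors, and Npm1 is also among the assembly factors. The lists are therefore not separate results. Of 16 genes that control ribosomal protein synthesis, 4 were negative, with a median of 0.039 and 1 at that p, Eif4ebp1, the mTOR-regulated translational repressor, at 0.13 (SE 0.049, adjusted p 0.722); Myc differed by 0.081 (SE 0.054). Of the ribosomal protein genes outside the naming pattern, Fau, whose product carries a small subunit protein, differed by -0.060 (SE 0.054) and Rpl7l1, a Rpl7 paralog, by 0.021 (SE 0.046).

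WT 6 was also high in 3 of these lists. As the mean deviation from each gene's 7-array mean, WT 6 stood at 0.085 for the small subunit, 0.063 for the large subunit, 0.097 for mitochondrial ribosomal proteins, 0.065 for translation factors and 0.074 for assembly factors. It was the highest array for 54.1%, 62.9% and 56.4% of the genes of the last 3 lists. For the 16 control genes it was the highest for 0 and stood at -0.060. For the 17 genes outside the family with oligopyrimidine mRNAs it stood at 0.030, beside 0.026 on CKO 43. The CKO arrays stood between -0.039 and 0.017 for both subunits and the lists of mitochondrial ribosomal proteins, translation factors and assembly factors.

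**Figure D4:**
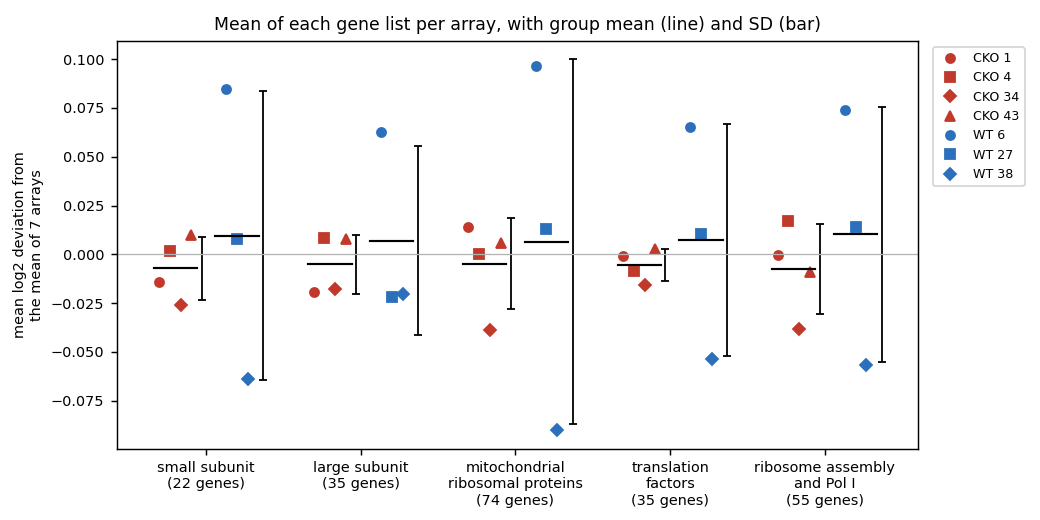
Mean log2 deviation of each list from its genes' mean over the 7 arrays, 1 point per array, with CKO in red and WT in blue, the group mean as a line and the SD as a bar. WT 6 is the highest array in all 5 lists, at 0.063 to 0.097, and WT 38 is the lowest in 4 of them.

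Markers of other cells gave the following values beside these. For all genes tested, 58.9% of differences were positive, the median was 0.014 and 6.79% had an unadjusted p of at most 0.05 (limma). Genes of dividing cells (20 of 21 listed were tested) stood between 0.022 and 0.083 on the CKO arrays. On WT 6, WT 27 and WT 38 they stood at 0.019, -0.042 and -0.16. Their differences were positive for 19 of 20, with a median of 0.12 and 7 at that p. Radial glia genes (11 of 12) stood between -0.024 and 0.12 in CKO and -0.14 and -0.029 in WT. All 11 were positive, with a median of 0.13 and 3 at that p. Intermediate progenitor genes (8 of 8) stood between -0.062 and 0.16 in CKO and -0.16 and 0.051 in WT. All 8 were positive, with a median of 0.094 and 1 at that p. WT 38, lowest for the small subunit at -0.064, was lowest for the lists of dividing cells, radial glia and intermediate progenitors. It was also lowest for red blood cell genes (4 tested), at -0.60, microglia genes (-0.064) and endothelial and mural genes (-0.070). Of all genes tested, 30.8% had their lowest value on WT 38. WT 6 was not the highest array for any of these marker lists. Striatal genes (8 tested) stood between -0.070 and 0.39 in CKO and -0.34 and -0.16 in WT. Of the 8, 7 were positive, with a median of 0.35 and 5 at that p. Projection neuron markers of the labelled tissue were above the filter for all 8 that had a single-symbol probe set. They stood between -0.027 and 0.081 in CKO and -0.10 and 0.088 in WT. Of the 8, 5 were positive, with a median of 0.051 and 3 at that p. Neurod6, from whose locus Nex-Cre is driven, is in this list. WT 6, the array that stood apart for the members, was the lowest of the 7 for the projection neuron markers, at -0.10. It was also lowest for meningeal and choroid genes (8 of 9 tested, 8 positive, median difference 0.19, 4 at that p), at -0.16. For oligodendrocyte genes (7 of 8 tested) it was lowest at -0.094, beside -0.083 on CKO 43. It was not the lowest array for astrocyte (0.0091), microglia (0.021), endothelial and mural (0.029) or interneuron genes (-0.014). Differences were positive for 8 of 9 astrocyte genes (median 0.092), 5 of 8 microglia genes (0.036) and 7 of 9 endothelial and mural genes (0.031). They were positive for 6 of 9 interneuron genes (0.13), 6 of 7 oligodendrocyte genes (0.050) and 4 of 4 red blood cell genes (0.16). At that p there were 2, 1, 0, 3, 0 and 0 genes of these lists, in the same order. In whole tissue, fewer cells of a type and less RNA per cell cannot be told apart, and the part of these values in the members' levels was not tested.

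Nr2f1 itself was at 10.60 to 10.79 in CKO and 10.88 to 11.16 in WT, a difference of -0.36 (SE 0.074, limma adjusted p 0.435), and Neurod6 differed by -0.20 (SE 0.057, adjusted p 0.711), both without overlap. The labels do not say whether the Nr2f1 probe set lies in the deleted part, so it does not check the labels.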

How the data were processed

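Total RNA of 7 samples was extracted with Trizol, labelled with biotin and hybridised to 1 Affymetrix array each. The deposited values are log2 signals; per the submitters' processing notes, the authors used RMA and Affymetrix Expression Console, with the version and genome build unstated there. The array medians ran from 8.232 to 8.234, and the number of arrays limits the precision. Symbols came from the platform annotation; 21695 of 21786 single-symbol probe sets matched the RefSeq gene table (GRCm38.p6) by Entrez identifier, and 0 symbols differed. Probe sets with a mean below the 25th percentile (6.84) were left out, and the brightest stood for each gene. CKO was compared with WT with limma 3.58.1 in R 4.3.3 (lmFit, eBayes; degrees of freedom 5 residual and 3.28 prior; no covariate; Benjamini-Hochberg over all genes at 0.05), tested on simulated data. Promoter sequences are RefSeq's. Figures were drawn with matplotlib 3.10.9. Members and lists were chosen with earlier results of these data known. Genes were named by rule: the 4 highest and 4 lowest t per subunit, the 3 brightest and dimmest, the stalk and Rpsa, paralogs, genes whose probe sets disagree in sign while 1 does not overlap, and the 2 smallest p of each related list; Rps12, Rpl3l, Rpl39l and those listed for a promoter motif were named after their values were seen. Alternatives covered normalization, filter, probe sets, variance model, array weights, array lot, threshold and leaving out each array.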

Additional observations from a re-analysis of the deposited data

Results flagged for a closer look

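Among 63 series of 4 CKO values examined (named genes and list means), 4 had an array far from the other 3 by Dixon's criterion, which chance meets in about 1 in 20 groups. For Rps25, CKO 4 was at 11.88 against 11.99 to 12.01 on the other CKO arrays. For Rpsa, CKO 1 was at 12.69 against 12.67 to 12.68. For Fau, CKO 4 was at 13.01 against 13.05 to 13.06. The mean deviation of the microglia list was 0.082 on CKO 1 against -0.039 to -0.025 on the others.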

How the results depend on the processing

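No ribosomal protein gene was called by limma in any setting run, nor was any gene of the related lists. Over all genes, the 4 calls became 1 with cyclic loess, 1 with array weights and 0 with lot as a fixed block or within lot 2 (611 and 486 genes at an unadjusted p of at most 0.05), and 1 to 6 when an array was left out, 6 without CKO 1 and 1 without any other single array. The small subunit median moved to 0.094 over the 5 genes with 1 probe set. Genes whose probe sets differ in sign numbered 9 (without WT 38) to 19 (without WT 6) when an array was left out, a check chosen after seeing the data. Both subunit medians turned positive without WT 6, with lot as a fixed block and within lot 2, and the large subunit's also, to 0.00061, without a filter, with a filter at the 50th percentile or without the paralogs ending in l; it was 0.0013 without CKO 1. The all-gene median was 0.013 without WT 6 and -0.0056 with lot as a fixed block or within lot 2. With probe sets of several symbols added, 72 members were tested, with medians of -0.022 for both subunits. Of 718 values of 40 named genes under alternatives, 30 turned sign, in 16 genes, and the cause was not tested beyond the smaller set of arrays or other probe sets used. Within lot 2, and with lot as a fixed block, which gives the same differences, these were 0.0039 for Rps2, 0.031 for Rps10, 0.0012 for Rpl27a, 0.081 for Rplp2, 0.033 for Rps4x and 0.017 for Fau. With probe sets of several symbols they were -0.067 for Rps15a, 0.036 for Rpl12 and -0.022 for Rpl21. With averaged probe sets they were -0.037 for Rps4l, -0.00040 for Rpl21 and -0.038 for Rpl23, and with array weights -0.0037 for Rpsa and -0.012 for Rps4l. Leaving out 1 array gave -0.13 to 0.039 for Rpl10l, -0.0022 to 0.049 for Rps14, -0.11 to 0.0056 for Rpl32l, -0.19 to 0.12 for Rplp2, -0.015 to 0.020 for Rpsa, -0.055 to 0.11 for Rps4l, -0.089 to 0.037 for Rps4x, -0.097 to 0.0036 for Fau and -0.012 to 0.058 for Rpl7l1. No paired analysis was possible because the groups share no label numbers.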
